A study of Mus musculus with 11 samples.

Results

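The genes described here are 10 G protein-coupled receptors through which hormones, nutrients and nerves act on insulin release: *Glp1r*, *Gipr*, *Gcgr*, *Ffar1*, *Gpr119*, *Adra2a*, *Chrm3*, *Galr1*, *Sstr3* and *Ghsr*. They were taken by gene ID from the 19329 gene IDs of the deposited table, and all 10 have a row there. Their RNA was measured by bulk RNA-sequencing of whole pancreatic islets in 6 libraries from wildtype mice (wild-type) and 5 libraries from PDX1 P33T/P33T mice (P33T), which carry on both alleles a proline-to-threonine exchange in the transcription factor PDX1. The line was made by CRISPR-Cas9 on the inbred C57BL/6N background, and all mice of both groups were male, 14 weeks old, chow-fed and otherwise untreated. The mutation is present in every cell from conception, the cohort was bred by mating homozygous animals, the islets were kept in culture after isolation, and a figure legend of the study gives several mice per replicate, so that libraries may be pools. The base exchange cannot be seen in a table of gene levels, so the genotype labels were not checked here.

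PDX1 is a homeodomain transcription factor that drives pancreas formation and later maintains the beta cell. Glucose alone triggers insulin release, and these receptors set its size: receptors that couple to Gs raise cyclic AMP and amplify release, receptors that couple to Gq act through phospholipase C and calcium, and receptors that couple to Gi lower cyclic AMP and restrain it. *Glp1r*, *Gipr*, *Gcgr* and *Gpr119* belong to the Gs class, *Ffar1*, *Chrm3* and *Ghsr* to the Gq class, and *Adra2a*, *Galr1* and *Sstr3* to the Gi class.

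Levels are FPKM, the reads of a gene scaled to the length of its exons and to the reads counted in the library, so they can be set side by side between genes. In the deposited table the P33T values stand on the rows of their genes, but most wild-type values do not. Wild-type values were used only where their row could be identified, which was possible for 7 of the 10 receptors. *Gcgr*, *Ffar1*, *Gpr119* and *Ghsr* were identified by the reads listed in a supplementary table of the study, the first stretch of a longer list ordered by the genotype comparison, so these 4 are not a random draw. *Gipr*, *Adra2a* and *Chrm3* were identified by gene length and level, a way that cannot find a gene whose level differs more than 4-fold between the groups. For *Glp1r*, *Sstr3* and *Galr1* only the P33T levels are given. The gene lengths recovered from the FPKM equalled the exon bases of GENCODE vM21 for 10 of the 10 receptors.

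The libraries held from 19311937 to 37094286 counted reads. The islet hormone genes were abundant in every library, with *Ins2* between 113559 and 177811 FPKM, *Gcg* between 4703 and 11983 FPKM and *Sst* between 4309 and 10589 FPKM. On the first principal component of the compared genes with a mean of at least 1 FPKM, which held 63.2% of the variance, wild-type replicate 3 (34.1) and P33T replicate 2 (-28.0) lay at opposite ends, and wild-type replicate 1 (-12.2) lay among the P33T libraries. P33T replicate 2 also had the highest acinar markers, with a summed level of 48.6 FPKM over 5 genes against 3.15 to 8.78 in the other 4 P33T libraries, and the lowest endothelial markers, with 44.0 FPKM over 3 genes against 74.8 to 100.4. Wild-type replicate 3 had the highest endothelial level, 82.9 FPKM over the 2 markers compared. P33T replicates 1 and 4, and likewise 3 and 5, differed far less than other libraries: the median chi-square of their reads was 1.15 and 1.14, against 1.75 to 16.1 in the other 23 pairs of a genotype and 0.455 from counting error alone. They differed by more than sampling noise and were kept as separate libraries, but the receptors' levels, fold changes and exact tests and the counts of called genes were also computed with these 2 pairs averaged, which leaves 3 P33T samples.

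None of the 7 compared receptors was called different between the genotypes. By limma with Benjamini-Hochberg adjustment over all gene IDs, 0 of 7 reached an adjusted p of 0.05 with a fold change of 1.5, where 0.118% of all genes compared were called (0.0592% higher and 0.0592% lower). At an unadjusted p under 0.05 there were 4 of 7 (*Gpr119* and *Ghsr* with higher, *Gcgr* and *Ffar1* with lower values in P33T), against 32.2% of all genes compared, 15% with higher and 17.2% with lower values. These 4 are the receptors identified by the supplementary list, which is ordered by the genotype comparison. Their small p, by limma or by exact permutation, is therefore not independent of how they were identified. The 32.2% covers 1672 genes identified by that list and 3398 by length and level, so it is not a matched yardstick. voom on the recovered reads also called 0 and gave 4 at an unadjusted p under 0.05. The sections below give the values behind these counts, ordered by what the receptors sense.

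Stretches before the start sites of the 4 receptors with the smallest p are shown because PDX1 acts on promoters through a homeodomain, whose core motif is TAAT. They are RefSeq sequences of GRCm38.p6, 5′ to 3′ on the gene's strand, from 250 bases before the start site up to that site or to the gene's start in GENCODE vM21 where that comes first. Capitals mark TAAT or, for the other strand, ATTA.
Gpr119: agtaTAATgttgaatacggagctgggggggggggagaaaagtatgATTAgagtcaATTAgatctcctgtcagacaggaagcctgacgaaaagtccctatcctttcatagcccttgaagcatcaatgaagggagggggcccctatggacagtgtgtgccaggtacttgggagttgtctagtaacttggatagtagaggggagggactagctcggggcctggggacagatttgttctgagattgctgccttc
Ghsr: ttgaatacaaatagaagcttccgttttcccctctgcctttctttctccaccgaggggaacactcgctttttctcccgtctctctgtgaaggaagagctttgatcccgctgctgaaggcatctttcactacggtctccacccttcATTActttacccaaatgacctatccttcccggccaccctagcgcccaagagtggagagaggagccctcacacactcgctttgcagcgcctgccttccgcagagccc
Gcgr: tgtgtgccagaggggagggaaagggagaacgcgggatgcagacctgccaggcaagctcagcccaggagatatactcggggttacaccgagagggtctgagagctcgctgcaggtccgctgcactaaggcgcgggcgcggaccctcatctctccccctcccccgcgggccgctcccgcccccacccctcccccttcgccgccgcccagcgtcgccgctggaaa
Ffar1: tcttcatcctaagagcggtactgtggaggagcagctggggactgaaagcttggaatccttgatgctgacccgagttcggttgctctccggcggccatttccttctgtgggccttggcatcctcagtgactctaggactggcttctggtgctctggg

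The stretch of *Gpr119* is chrX:48674479-48674728 on the minus strand and holds 3 matches, the first bases of which lie 246, 205 and 195 bases before the start site. The stretch of *Ghsr* is chr3:27371101-27371350 on the plus strand and holds 1 match, 106 bases before the start site. The stretches of *Gcgr* (chr11:120530477-120530698, plus strand) and *Ffar1* (chr7:30861565-30861720, minus strand) hold none. *Gpr119* and *Ghsr* were the 2 with a match in the 250 bases among the 8 receptors read. *Gipr* had no entry. *Galr1* was left out of this reading by name and not by a rule, so the statements on matches and on G and C do not cover it. Of the 32851 windows of this length in the RefSeq table, 54.9% hold the motif. The motif holds only A and T, and the 250 bases of *Gpr119* and *Ghsr* had the lowest share of G and C. It was 50.4% and 54% there, against 55.6% to 73.2% in the other receptors read. A match is a description of the letters and not a site of PDX1 binding, which was not measured.

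*Glp1r*, the receptor of the incretin GLP-1 and the target of the drugs that mimic it, had the highest level of the 10 receptors in P33T islets. The gene spans chr17:30901817-30940791 of GRCm38. It stood at 110.4, 89.0, 123.1, 113.7 and 126.0 FPKM in P33T replicates 1 to 5, a mean of 112.5 ± 14.6 (SD, n = 5), from 12280 to 26995 reads. Replicate 2 was the lowest library, and without it the mean was 118.3 ± 7.44 (SD, n = 4). No wild-type value is given, because 2 wild-type rows of its length (5811 bases), at means of 74.0 and 130.9 FPKM, could both be this gene.

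*Gipr*, the receptor of the other incretin GIP (chr7:19156061-19166127), had a level of 5.04 ± 0.462 FPKM (SD, n = 5) in P33T and 5.28 ± 1.13 FPKM (SD, n = 6) in wild-type. The wild-type libraries held 6.04, 7.05, 4.31, 4.204, 5.49 and 4.56 FPKM and the P33T libraries 5.79, 5.00, 5.05, 4.54 and 4.85 FPKM. All P33T values lay inside the wild-type range. The log2 fold change of P33T over wild-type was -0.04 with a standard error of 0.14 and a 95% interval from -0.34 to 0.25 (limma adjusted p = 1, exact permutation p = 0.788). Its sign turned without wild-type replicate 1 or 2.

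*Gcgr*, the glucagon receptor through which alpha cells act on neighbouring beta cells (chr11:120530699-120538986), was the receptor whose groups did not overlap. It had 11.4, 11.9, 12.0, 10.8, 10.8 and 12.3 FPKM in the wild-type libraries, a mean of 11.6 ± 0.634 (SD, n = 6). The P33T libraries had 10.8, 10.3, 9.11, 10.04 and 7.42 FPKM, a mean of 9.53 ± 1.32 (SD, n = 5). All 5 P33T values lay below all 6 wild-type values, although the highest of them, 10.76 FPKM in replicate 1, came close to the lowest wild-type value of 10.83 FPKM. Of all genes compared, 2.39% had the P33T libraries below all wild-type libraries, 2.19% had them above and 4.58% did either, beside 1 of the 7 receptors. The log2 fold change was -0.29 with a standard error of 0.10 and a 95% interval from -0.50 to -0.07, and the adjusted p of limma was 0.492. The two-sided exact permutation p was 0.00433, the smallest that the splits of 11 libraries into 6 and 5 can give, in a family of 7 such tests that is not adjusted here. Without the 2 libraries at the ends of the principal component the log2 fold change was -0.31, and with the alike P33T libraries averaged -0.26. *Gcg*, which encodes the ligand, had a log2 fold change of 0.32 (adjusted p = 1).

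*Ffar1*, the receptor for long-chain fatty acids (chr7:30857390-30861564), had one of the widest spreads. Its wild-type levels were 27.8, 50.4, 66.6, 33.5, 34.2 and 42.6 FPKM, a mean of 42.5 ± 14.2 (SD, n = 6). Its P33T levels were 35.2, 19.7, 28.7, 34.6 and 30.3 FPKM, a mean of 29.7 ± 6.23 (SD, n = 5). The highest value was that of wild-type replicate 3 and the lowest that of P33T replicate 2, and 3 of the 6 wild-type libraries lay within the P33T range. For *Ffar1* the log2 fold change was -0.48 with a standard error of 0.22 and a 95% interval from -0.96 to -0.01 (limma adjusted p = 0.573, exact permutation p = 0.0996). Without wild-type replicate 3 and P33T replicate 2 the log2 fold change was -0.20 and the exact permutation p was 0.365.

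*Gpr119*, which senses lipid amides and lysophospholipids and raises cyclic AMP (chrX:48667979-48674478), had the largest difference of the 7. The wild-type libraries had 9.59, 4.68, 3.13, 4.05, 4.54 and 5.99 FPKM, a mean of 5.33 ± 2.28 (SD, n = 6). The P33T libraries had 6.93, 16.9, 9.21, 7.46 and 8.68 FPKM, a mean of 9.84 ± 4.05 (SD, n = 5). Every P33T value lay above 5 of the 6 wild-type values, but wild-type replicate 1 was higher than 4 of the 5 P33T libraries, and P33T replicate 2 was about 2.09 times the mean of the other 4. For *Gpr119* the log2 fold change was 0.88 with a standard error of 0.28 and a 95% interval from 0.28 to 1.49 (limma adjusted p = 0.492, exact permutation p = 0.026). Leaving out P33T replicate 2 gave a log2 fold change of 0.67 and an exact permutation p of 0.0571. Without wild-type replicate 3 as well these were 0.54 and 0.0952, and with the alike P33T libraries averaged they were 1.03 and 0.0714.

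**Figure D1:**
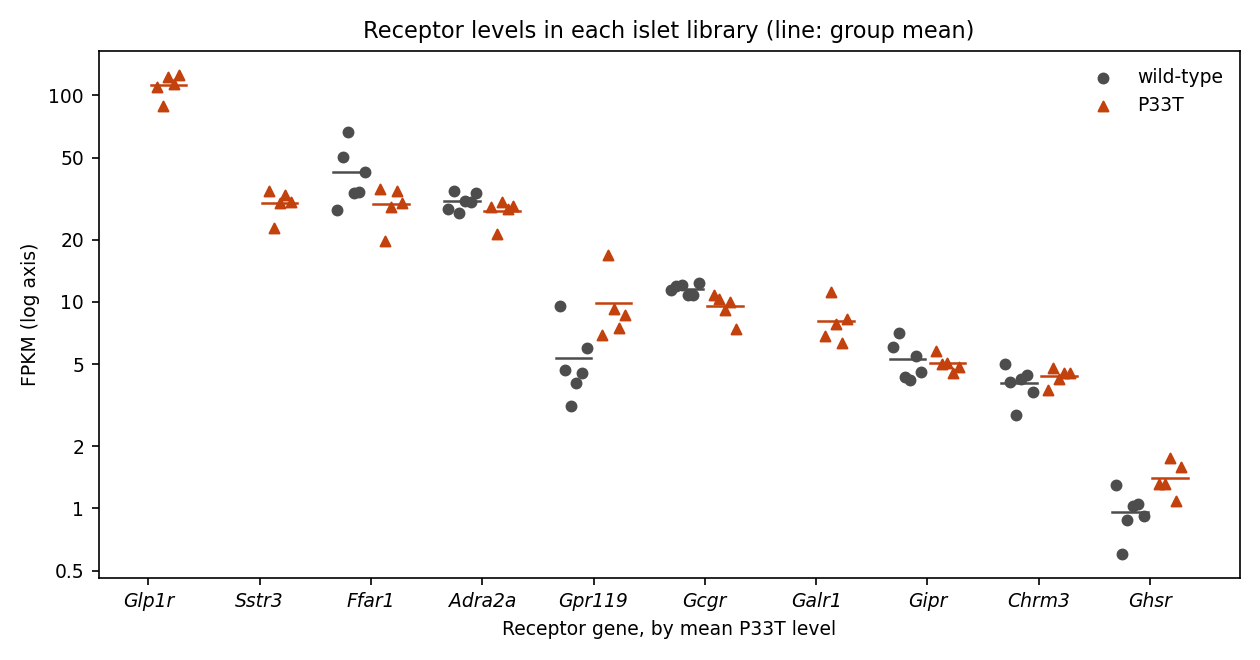
FPKM of the 10 receptors in each library on a log axis, with 6 wild-type libraries as circles, 5 P33T libraries as triangles and the group mean as a line. *Glp1r* sits highest at a P33T mean of 112.5 FPKM and *Ghsr* lowest at 1.41 FPKM, *Gcgr* is the receptor whose groups do not overlap, and *Glp1r*, *Sstr3* and *Galr1* have no wild-type points.

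Among the receptors of nerve and paracrine signals, *Sstr3* and *Adra2a* had levels close to that of *Ffar1*. *Adra2a*, the adrenergic receptor through which sympathetic nerves restrain insulin release (chr19:54044151-54048982), had 28.2, 34.4, 27.0, 31.0, 30.3 and 33.7 FPKM in wild-type, a mean of 30.8 ± 2.92 (SD, n = 6). In P33T it had 29.0, 21.3, 30.3, 28.0 and 29.3 FPKM, a mean of 27.6 ± 3.61 (SD, n = 5). Replicate 2 lay below all wild-type libraries, whereas the other 4 P33T libraries lay within the wild-type range. The log2 fold change was -0.16 with a standard error of 0.11 and a 95% interval from -0.39 to 0.07 (limma adjusted p = 1, exact permutation p = 0.165), and -0.07 without P33T replicate 2.

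*Chrm3*, the muscarinic receptor that carries the vagal signal of acetylcholine to the beta cell (chr13:9875486-10360847), had 5.02, 4.10, 2.84, 4.25, 4.44 and 3.65 FPKM in wild-type and 3.74, 4.78, 4.22, 4.52 and 4.53 FPKM in P33T. The means were 4.05 ± 0.743 (SD, n = 6) and 4.36 ± 0.398 (SD, n = 5), and the P33T values lay inside the wild-type range. For *Chrm3* the log2 fold change was 0.12 with a standard error of 0.13 and a 95% interval from -0.17 to 0.40 (limma adjusted p = 1, exact permutation p = 0.442). Its sign turned when each library was rescaled to the same sum of FPKM (TPM, -0.03), a scaling that moved the median of all genes compared from -0.06 to -0.21, and without the 2 libraries at the ends of the principal component (-0.01).

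*Ghsr*, the ghrelin receptor, had the lowest level of the 10, and its gene spans chr3:27371351-27378010. The wild-type libraries had 1.30, 0.602, 0.876, 1.03, 1.05 and 0.923 FPKM, a mean of 0.962 ± 0.229 (SD, n = 6). The P33T libraries had 1.31, 1.31, 1.76, 1.08 and 1.58 FPKM, a mean of 1.41 ± 0.264 (SD, n = 5). These values rest on 59 to 259 reads a library, and 4 of the 5 P33T values exceeded every wild-type value. The log2 fold change was 0.52 with a standard error of 0.17 and a 95% interval from 0.14 to 0.89 (limma adjusted p = 0.492, exact permutation p = 0.00866). Without the 2 libraries at the ends of the principal component the log2 fold change was again 0.52 and the exact permutation p 0.0317, and with the alike P33T libraries averaged the exact permutation p was 0.0476. In islets *Ghsr* is known from delta cells, whose hormone gene *Sst* had a log2 fold change of -0.32 (adjusted p = 0.972). In bulk RNA, fewer cells of a type and less RNA per cell cannot be told apart.

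**Figure D2:**
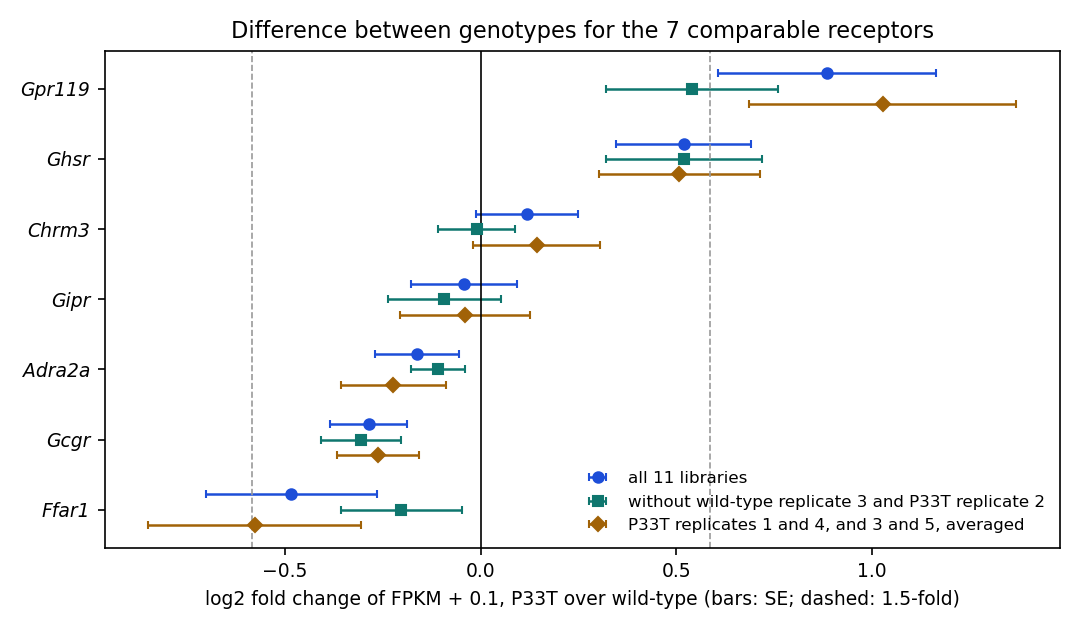
Log2 fold change of P33T over wild-type for the 7 receptors with an identified wild-type row, with standard errors as bars and dashed lines at 1.5-fold. *Gcgr* (-0.29, -0.31 and -0.26) and *Ghsr* (0.52, 0.52 and 0.51) keep about the same value with all libraries, without wild-type replicate 3 and P33T replicate 2, and with the alike P33T libraries averaged, whereas *Gpr119* (0.88, 0.54 and 1.03) and *Ffar1* (-0.48, -0.20 and -0.58) move with the libraries used.

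The P33T levels of *Sstr3* and *Galr1* stand without a comparison. *Sstr3*, a somatostatin receptor that sits on the primary cilium (chr15:78537008-78544685), had 34.3, 22.8, 30.03, 32.8 and 30.5 FPKM in P33T replicates 1 to 5, a mean of 30.1 ± 4.44 (SD, n = 5). Of the 3 somatostatin receptors with a row it had the highest level: *Sstr1* had 0.606 ± 0.0784 and *Sstr2* 0.735 ± 0.0913 FPKM (SD, n = 5), a comparison chosen after the values were seen. *Galr1*, the receptor of the neuropeptide galanin, had 6.86, 11.1, 7.80, 6.31 and 8.25 FPKM, a mean of 8.07 ± 1.87 (SD, n = 5), with replicate 2 the highest. *Galr3*, another galanin receptor, had 14.7 ± 1.22 FPKM. For *Sstr3*, 3 wild-type rows of its length had means of 6.13, 23.7 and 34.6 FPKM. For *Galr1* there were 2 such rows. The row with a mean of 0.322 FPKM was matched to another gene, *2900005J15Rik*, and the other had a mean of 0.00184 FPKM. No wild-type row was therefore identified for *Sstr3* or *Galr1*.

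Over the P33T libraries the receptors fell into steps of level. *Glp1r* was above *Sstr3* in 5 of 5 libraries, 3.22 to 4.13 times, and their ranges did not overlap. *Sstr3* (30.1 FPKM), *Ffar1* (29.7 FPKM) and *Adra2a* (27.6 FPKM) could not be ordered, since *Sstr3* was above *Ffar1* and *Ffar1* above *Adra2a* in 3 of 5 libraries each. *Adra2a* was above *Gpr119* in 5 of 5 libraries, but by as little as 1.26 times in replicate 2 and as much as 4.18 times in another. *Gpr119* (9.84 FPKM), *Gcgr* (9.53 FPKM) and *Galr1* (8.07 FPKM) overlapped as well, with *Gpr119* above *Gcgr* and *Gcgr* above *Galr1* in 3 of 5 libraries each. *Galr1* was above *Gipr* and *Gipr* above *Chrm3* in 5 of 5 libraries, the latter by 1.00 to 1.55 times with overlapping ranges, and *Chrm3* was 2.40 to 4.18 times *Ghsr*. *Glp1r* was above 98.5% of all gene IDs by its P33T mean and *Ghsr* above 47.3%.

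P33T replicate 2 set much of the spread. It was the lowest P33T library for 4 receptors (*Glp1r*, *Ffar1*, *Adra2a* and *Sstr3*), the 4 with the highest means, and the highest for 3 (*Gpr119*, *Chrm3* and *Galr1*). No share over all genes is given beside these counts. This library also stood apart over the compared genes, at -28.0 on the first principal component, so the counts are not read as particular to the receptors. On the log2 scale replicate 2 stood -0.70 from the mean of the other 4 P33T libraries for *Ffar1*, -0.48 for *Sstr3*, -0.45 for *Adra2a* and -0.41 for *Glp1r*, against 1.08 for *Gpr119* and 0.62 for *Galr1*. *Gipr* (-0.01) and *Ghsr* (-0.10) were near the other libraries there. The same library had the acinar and endothelial levels given above, and *Iapp*, the gene of the beta cell peptide amylin, at 56328 FPKM, where the remaining P33T libraries had 28444 to 31927 FPKM. The part of these differences in the receptor levels was not tested. The near-alike P33T pairs showed in some receptors and not in others. *Ffar1* had 35.2 and 34.6 FPKM in replicates 1 and 4 but 28.7 and 30.3 FPKM in replicates 3 and 5, whereas for *Gipr* replicates 1 and 4 were the highest (5.79 FPKM) and the lowest (4.54 FPKM) P33T libraries. *Ghrl*, the ghrelin gene, had 1.86 and 1.81 FPKM in the first pair but 0.374 and 0.327 FPKM in the second.

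**Figure D3:**
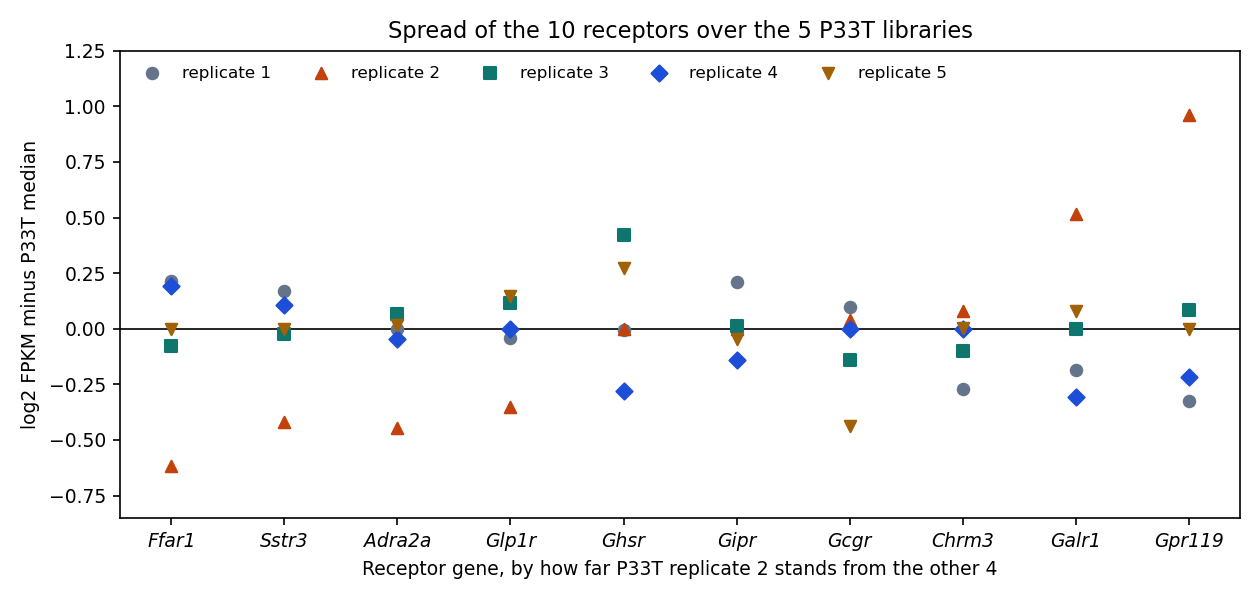
Log2 FPKM of each of the 10 receptors in the 5 P33T libraries, as the distance from the P33T median. Replicate 2 (red triangles) lies lowest for *Ffar1*, *Sstr3*, *Adra2a* and *Glp1r* and highest for *Gpr119*, *Galr1* and *Chrm3*, while replicates 1 and 4 lie side by side for *Ffar1* and apart for *Gipr*.

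The receptors' ligands, G proteins and effectors held no called gene either, where 0.118% of all genes compared were called. At that share, lists this short would seldom hold one, so the counts of 0 here and below say little about them. The supplementary list ordered by the genotype comparison identified *Vip*, *Npy*, *Ffar3*, *Gnas*, *Gna12*, *Adcy4*, *Plcb2* and the 3 macrophage markers named here and below. Compared genes identified by that list had a median log2 fold change of -0.32. The values of these genes and the list medians are therefore not a random draw. Of 12 ligand genes, 9 had a row and 7 were compared, with 0 called higher, 0 called lower and a median log2 fold change of -0.32, against -0.06 over all genes compared. *Vip*, a neuropeptide of the pancreatic nerves, had 0.476 ± 0.235 FPKM in P33T (SD, n = 5) and 1.45 ± 0.893 FPKM in wild-type (SD, n = 6), a log2 fold change of -1.41 (limma adjusted p = 0.48). *Npy*, which encodes neuropeptide Y, had 13.1 ± 2.61 and 26.1 ± 10.97 FPKM, a log2 fold change of -0.90 (limma adjusted p = 0.492). *Ppy*, the pancreatic polypeptide gene, had a log2 fold change of -0.69 (adjusted p = 0.694) and *Iapp* one of 0.50 (adjusted p = 0.648). *Ghrl* was at 0.327 to 1.86 FPKM in P33T and the galanin gene *Gal* at 0.155 to 0.236 FPKM. The RNA of these ligands of *Ghsr* and *Galr1* was thus low in the P33T islets. The peptides, which may also reach islets from elsewhere, were not measured. The 3 macrophage markers had negative log2 fold changes with 0 called, and their summed level was 17.2 to 27.4 FPKM in P33T and 22.1 to 57.3 FPKM in wild-type. Their part in the ligand values was not tested.

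Of 38 related receptors, 26 had a row, 5 were compared and 0 were called in either direction, with a median log2 fold change of -0.09. *Adgrg1*, an adhesion receptor abundant in islets, led them with 52.6 ± 7.80 FPKM in P33T and 55.5 ± 3.56 FPKM in wild-type. *Ffar2*, a receptor of short-chain fatty acids, followed with 17.3 ± 2.54 FPKM in P33T and *Vipr1*, a receptor of vasoactive intestinal peptide, had 6.94 ± 0.915 FPKM. *Ffar3*, the other receptor of short-chain fatty acids, had 6.54 ± 1.71 FPKM in P33T and 9.17 ± 2.32 FPKM in wild-type. Its log2 fold change was -0.49 (limma adjusted p = 0.52), whereas that of *Ffar4*, a further fatty acid receptor compared, was 0.21. *Cnr1*, a cannabinoid receptor, had a log2 fold change of 0.59 (limma adjusted p = 0.632).

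Of 28 G protein subunits, 26 had a row, 7 were compared and 0 were called, with a median of -0.10. *Gnai2*, an alpha subunit of the Gi class, had the highest P33T mean of the subunits with a row, 256.3 ± 32.5 FPKM, and 273.5 ± 14.3 FPKM in wild-type. *Gng12*, *Gnb2* and *Gnb1*, of the beta and gamma subunits, had 93.8, 79.8 and 76.4 FPKM in P33T. *Gnas*, the locus of the Gs alpha subunit, had 6.13 ± 0.387 and 4.89 ± 0.335 FPKM, a log2 fold change of 0.32 (limma adjusted p = 0.48). *Gna12* had a log2 fold change of -0.34 (limma adjusted p = 0.494).

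The cyclic AMP pathway, through which *Glp1r*, *Gipr*, *Gcgr* and *Gpr119* act, had 33 of 34 genes with a row and 12 compared, 0 of them called, with a median of -0.16. Its regulatory subunit gene *Prkar1a* had 131.1 ± 17.9 FPKM in P33T and 112.6 ± 11.9 FPKM in wild-type, a log2 fold change of 0.21 (limma adjusted p = 0.694). The catalytic subunit genes *Prkaca* and *Prkacb* had 52.9 and 36.0 FPKM in P33T, and *Prkar1b* had 48.0 FPKM. *Adcy4*, an adenylyl cyclase, had 1.39 ± 0.517 and 3.19 ± 2.33 FPKM (limma adjusted p = 0.494).

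Of 18 genes of the phospholipase C pathway, which *Ffar1*, *Chrm3* and *Ghsr* use, 17 had a row and 8 were compared, with 0 called and a median of -0.19. The protein kinase C gene *Prkce* had the highest P33T mean at 6.998 FPKM, followed by *Itpr3* (6.87 FPKM), an inositol trisphosphate receptor, *Prkca* (6.23 FPKM) and *Prkd1* (6.07 FPKM). *Plcb2* and *Prkcz* had the smallest p, with log2 fold changes of -0.58 and -0.18 (limma adjusted p = 0.533 and 0.599). All 21 regulators of the receptors had a row, 4 were compared and 0 were called, with a median of -0.02. *Rgs4*, which shortens signals of Gi and Gq, led them with 26.8 FPKM in P33T, followed by the kinase gene *Grk2* (21.9 FPKM), the arrestin gene *Arrb2* (9.22 FPKM) and *Ramp3* (8.33 FPKM). *Grk6* and *Arrb1* had log2 fold changes of 0.13 and -0.51 (limma adjusted p = 0.851 and 1).

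**Figure D4:**
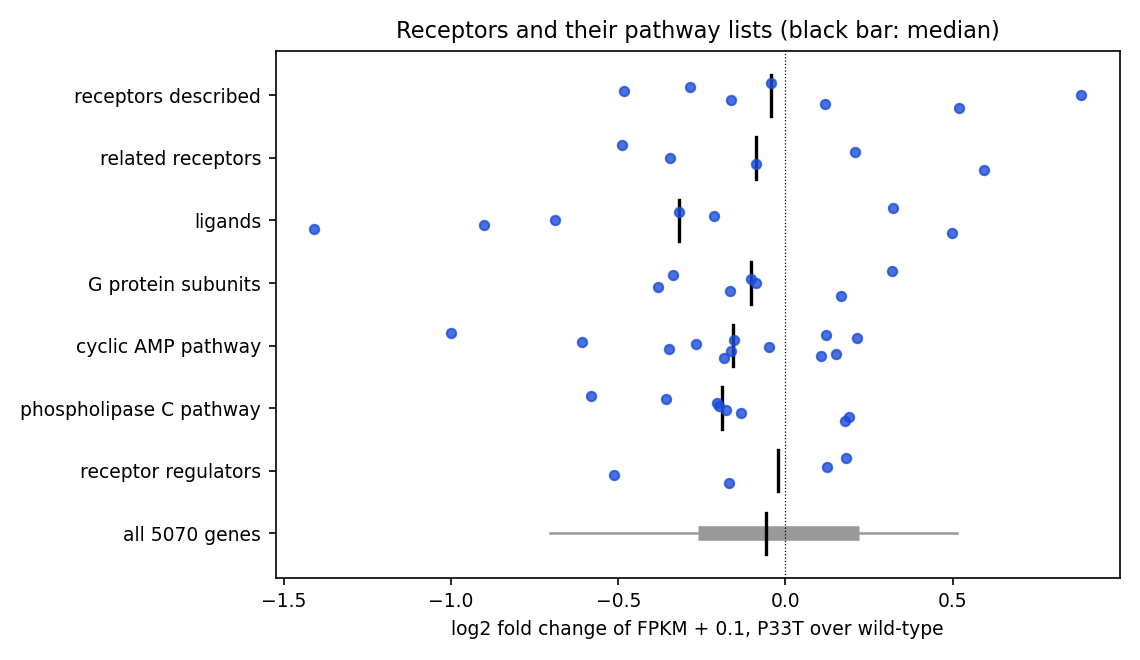
Log2 fold change of P33T over wild-type for each compared gene of the receptors and their 6 lists, with the list median as a black bar, above all genes compared (grey box from the 25th to the 75th percentile, line from the 5th to the 95th). The list medians lie between -0.32 for the ligands and -0.02 for the regulators, beside -0.06 for all genes. Part of the genes shown were identified by the supplementary list ordered by the genotype comparison, so the medians are not a random draw. No point of the figure was called, where 0.118% of all genes compared were.

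By the likeness of log2 levels over the 11 libraries, the genes closest to *Gpr119* were *Zcchc18* (Pearson's r = 0.986, Spearman's rho = 0.973) and *Akr1c14* (r = 0.983, rho = 0.973). The genes closest to *Ffar1* were *Castor2* (r = 0.994, rho = 0.991) and *Apbb2* (r = 0.993, rho = 0.955). Those closest to *Ghsr* were *Napepld* (r = 0.963) and *Kdm6a* (r = 0.945), and those closest to *Chrm3* were *Lamp1* (r = 0.9504) and *Miga1* (r = 0.940). Those closest to *Adra2a* were *Nedd4* (r = 0.956, rho = 0.773) and *L1cam* (r = 0.948, rho = 0.736). By r the likeness was lowest for *Gcgr*, with *Thap4* (r = 0.895) and *Fam110b* (r = 0.860), and for *Gipr*, with *Mns1* (r = 0.880) and *Nin* (r = 0.866). These are the highest of 5069 values each over 11 points that share libraries and depth, and they are given as a description.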

How the data were processed

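RNA of whole islets was sequenced in 11 libraries. The authors deposited FPKM per gene and library, after read filtering with fastp 0.23.1, alignment with HISAT2 2.0.5 to GRCm39 (mm39) and counting with featureCounts 1.5.0-p3, as named in the submitters' processing notes, which also name DESeq2 1.20.0 for the authors' own comparison. Genes without a value in 80% of one condition's replicates were dropped by the authors. Library protocols of both kinds, stranded and not, are named without saying which applied. The receptors and gene lists were chosen with earlier results of these data known.

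From the FPKM steps the reads and gene lengths were recovered (whole to 2e-06 read plus a relative 1e-08). Wild-type values were put on a gene by the wild-type reads of the study's supplementary gene table (1711 genes) or by length and level (3398 genes: at least 100 reads in each group, group means within 4-fold, no other candidate within 16-fold). That table served this purpose only. Of 402 genes found both ways, 402 had the same row, and with their own row hidden 2 of 1512 were matched wrongly. Of the genes identified, 39 were left out because they are listed at 0 in every P33T library, which left 5070 in the comparison.

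limma 3.58.1 in R 4.3.3 (trend, robust) was fitted to log2(FPKM + 0.1) over all 11 libraries without covariates. Benjamini-Hochberg adjustment ran over 19329 gene IDs, with p set to 1 for genes not compared. Calls were made at a 1.5-fold change with adjusted p up to 0.05. Fold changes on this scale understate the change of low genes. Each receptor was also tested by exact permutation (two-sided) of mean log2(FPKM + 0.1) over all splits of 11 libraries into 6 and 5. The labels name no batch. The numbers in the labels were not used to pair libraries, since same-numbered libraries did not deviate together. The text names all receptors, of each list the 4 genes with the highest P33T mean and the 2 with the smallest p, and for each compared receptor the 2 genes most like it. The fit was tested on simulated data with independent libraries and larger changes than those of the receptors. That test does not cover near-alike libraries or changes as small as those here. Python 3.11.15, numpy 2.4.6, pandas 2.3.3, scipy 1.17.1 and matplotlib 3.10.9 were used. Read counts cover counting error only. Alternatives, among them voom, TPM, other pseudocounts and left-out libraries, are given at the end.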

Additional observations from a re-analysis of the deposited data

Results flagged for a closer look

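Of 17 sets of libraries (a receptor in a genotype), 2 had 1 library far from the others by Dixon's criterion, which chance alone meets in about 1 of 20. Both were P33T replicate 2. *Gpr119* stood at 16.9 FPKM there and between 6.93 and 9.21 FPKM elsewhere in P33T. *Adra2a* stood at 21.3 FPKM, below the 28.0 to 30.3 FPKM of the rest. The same library had the highest acinar and lowest endothelial marker levels of the P33T libraries, and their part in these values was not tested.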

How the results depend on the processing

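The recovery of the wild-type rows, the 3 receptors without one and the small groups limit what can be said. No receptor was called under any alternative. The sign of the log2 fold change held for *Gcgr*, *Ffar1*, *Gpr119*, *Adra2a* and *Ghsr* under every alternative tried. It turned for *Gipr* without wild-type replicate 1 (0.00042) or 2 (0.045), and for *Chrm3* by TPM (-0.029) and without the 2 libraries at the ends of the principal component (-0.0099), an alternative chosen after seeing the data like the averaged pairs, voom and keeping already identified rows among the candidates. Leaving out 1 library gave log2 fold changes of -0.10 to 0.04 for *Gipr*, -0.33 to -0.20 for *Gcgr*, -0.59 to -0.34 for *Ffar1*, 0.67 to 1.07 for *Gpr119*, -0.20 to -0.07 for *Adra2a*, 0.02 to 0.18 for *Chrm3* and 0.41 to 0.60 for *Ghsr*. TPM gave -0.44 for *Gcgr*, -0.31 for *Adra2a* and -0.19 for *Gipr*, and a pseudocount of 1 gave 0.30 for *Ghsr*. Exact p without 1 library ranged from 0.00794 to 0.0571 for *Gpr119* (highest without P33T replicate 2), from 0.0476 (without wild-type replicate 1) to 0.219 for *Ffar1*, from 0.00794 to 0.00952 for *Gcgr* and from 0.00794 to 0.019 for *Ghsr*. For *Gpr119* it was 0.0952 without the 2 libraries at the ends and 0.0714 with the alike P33T pairs averaged.

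Genes called higher and lower numbered 3 and 3. They were 1 and 2 with a pseudocount of 0.01 or a mean FPKM of at least 1, 0 and 2 with a limit of 1.5 on the log2 scale, 2 and 4 by TPM, 2 and 1 with rows identified by listed reads alone or group means within 2-fold, 6 and 7 adjusted over the compared genes, and 0 and 1 with the alike P33T pairs averaged. Leaving out 1 library gave 1 to 3 higher and 2 to 5 lower, the most without wild-type replicate 1. With a replicate block by the titles they were 0 and 1 and by the library names 1 and 2. The numbers do not pair the libraries: same-numbered libraries correlated at -0.59, -0.12, -0.26, -0.29 and 0.11 by the titles and at -0.59, -0.12, 0.12, -0.05 and 0.12 by the library names. With the block by the titles the log2 fold changes were 0.94 for *Gpr119*, 0.51 for *Ghsr*, -0.27 for *Gcgr* and -0.47 for *Ffar1*, with an adjusted p of 1 each. The cause of these moves was not tested.

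As TPM the P33T means were 222.9 for *Glp1r*, 59.5 for *Sstr3*, 58.9 for *Ffar1*, 54.6 for *Adra2a*, 18.8 for *Gpr119*, 18.6 for *Gcgr*, 15.6 for *Galr1*, 9.87 for *Gipr*, 8.54 for *Chrm3* and 2.78 for *Ghsr*, in the same order as by FPKM.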

Other observations

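*Ffar1* and *Gpr119* stood at opposite ends of the same libraries, a pattern noticed after the values were seen. It was not particular to this pair: over the 11 libraries, the deviations from the genotype means of *Ffar1* had a Pearson's r of -0.80 with those of *Gpr119* and -0.84 with those of *Chrm3*, given as a description of points that share libraries. In wild-type, replicate 3 had the highest *Ffar1* (66.6 FPKM) and the lowest *Gpr119* (3.13 FPKM), while replicate 1 had the lowest *Ffar1* (27.8 FPKM) and the highest *Gpr119* (9.59 FPKM). In P33T, replicate 2 had the lowest *Ffar1* (19.7 FPKM) and the highest *Gpr119* (16.9 FPKM), while replicate 1 had the highest *Ffar1* (35.2 FPKM) and the lowest *Gpr119* (6.93 FPKM). On the first principal component wild-type replicate 3 lay at 34.1, wild-type replicate 1 at -12.2 and P33T replicate 2 at -28.0, while P33T replicate 1, at -2.04, did not lie apart. *Gcgr* did not follow this order: its wild-type libraries stayed between 10.8 and 12.3 FPKM.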
